A study of Mus musculus with 2 samples.

Results

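The genes described here are 34 actin, myosin and contractile genes, chosen by symbol out of the 32285 genes of the count tables, and all 34 were found. By textbook knowledge 17 of them are muscle-restricted (Acta2, Actg2, Actc1, Tagln, Cnn1, Myh11, Myl9, Mylk, Des, Lmod1, Synpo2, Tpm2, Csrp1, Pdlim3, Pln, Tnnt2, Smtn) and 17 are widely expressed (Tagln2, Cnn2, Cnn3, Myh9, Myh10, Myl6, Tpm1, Tpm4, Cald1, Csrp2, Flna, Vcl, Actn1, Actn4, Zyx, Pdlim7, Tln1). The rule selects them by symbol and sets no threshold on a measured value.

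Smooth muscle contracts when myosin filaments pull on actin filaments. Calcium and calmodulin activate myosin light chain kinase, the kinase phosphorylates the light chain of myosin, and a phosphatase reverses this step. Many of the muscle forms are switched on by serum response factor (SRF) with its partner myocardin at a DNA element called the CArG box, while the related MRTF partners link the same factor to actin assembly in other cells. In the lung these genes mark the muscle around airways and vessels, pericytes carry several of them, and fibroblasts that take them up after injury are called myofibroblasts.

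The cells came from lungs of Lepr-CreERT2;Rosa26-tdtomato mice aged 8-10 weeks, given saline in one group and bleomycin, a drug that injures the lung and leads to fibrosis, in the other. In both groups a tamoxifen-dependent Cre made from the leptin receptor gene turns on the red protein tdTomato for good, so the cells are those in which that promoter was active at labelling or their descendants. Live tdTomato-positive cells without the surface markers CD45, EpCAM and CD31 were sorted, and the 3' ends of their transcripts were sequenced with 10x Genomics V3 reagents. There was 1 library per treatment. How many mice went into each, the bleomycin dose, the interval to collection and the schedule of tamoxifen are facts not given in the sources used here. With 1 library a group no difference between treatments has a replicate check, so no test was made. Every interval below covers counting error only, at the 95% level.

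In saline 8396 barcodes had a median of 6762 UMIs (unique transcript molecules) and in bleomycin 10138 had a median of 11662, and 25 barcodes occurred in both. After filters, 8269 saline and 9999 bleomycin cells were used. The doublet caller marked 81 saline cells but only 2 bleomycin cells, in both libraries below its expected rate. Whether it failed or doublets had been removed before deposit is not known, so doublets may remain, above all in bleomycin. Levels are CPM, the usual scaling of a gene's UMIs to a fixed total of UMIs of the class. Lepr was at 62.7 CPM in the saline and 11.3 CPM in the bleomycin mesenchymal cells, while Ptprc (CD45), Epcam and Pecam1 (CD31) were each below 2 CPM in both. Clusters were named from marker lists that hold none of the 34 genes, and the 34 genes were kept out of the clustering. All class names stand for "like" that type: alveolar (5758 saline and 297 bleomycin cells), adventitial (1456 and 1125), inflammatory (80 and 4250), fibrotic (14 and 2425), proliferating (43 and 527) and peribronchial fibroblasts (323 and 400), smooth muscle cells (212 and 288) and pericytes (145 and 184). A further 76 saline and 175 bleomycin cells matched both the smooth muscle and the peribronchial lists. They stay unnamed and are called the Chrm2 cluster after one of their leading genes. The 14 fibrotic cells of the saline library are too few for levels and were not compared.

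Several class borders bear on what follows. The pericytes also matched the smooth muscle list, and in 3 of the other clusterings tried only 22 to 32 saline cells kept the pericyte name. Smooth muscle cells fell into a subcluster marked by Sost (205 saline and 97 bleomycin cells) and one marked by Sncg (7 and 191). Peribronchial cells fell into a Cyp2e1 subcluster (315 and 21) and a Pappa2 subcluster (8 and 379), so different cells fill that class in each library. A cluster of 121 saline and 212 bleomycin cells with epithelial markers served as the background for stray RNA. It also held Ptprc at 48 and 53.5 CPM and Pecam1 at 57.9 and 97.1 CPM, so it is a mix of cells.

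RefSeq promoter windows (GRCm38.p6, the assembly of mm10; 250 bases before to 50 after each start) were found for 30 of the 34 genes, in 34 windows, and Actg2, Tagln, Myh11 and Csrp2 had no entry. A CArG box was searched as CCWWWWWWGG, with W for A or T, a pattern that covers both strands. It stood in 5 of the 34 windows (14.7%), against 535 of 32851 promoters of all genes (1.63%). It lay in windows of Actc1 and Myl9 among the muscle-restricted genes and of Cnn2, Vcl and Myl6 among the widely expressed ones. These short windows miss boxes further away, and the strict pattern misses boxes with another letter between CC and GG. A match is a description of letters. An MCAT motif (CATTCC, both strands), which TEAD factors bind, stood in 13 of the 34 windows (38.2%), against 14.7% of all promoters, and 1 of these was the window of Acta2. The boxes of 4 genes are shown with their surroundings, 5' to 3' on the gene's strand with the box in capitals, since the 4 genes differ in where they were expressed.
Actc1, chr2:114052888-114052947, minus strand: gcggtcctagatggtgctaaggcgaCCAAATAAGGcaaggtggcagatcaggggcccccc
Myl9, chr2:156775278-156775337, plus strand: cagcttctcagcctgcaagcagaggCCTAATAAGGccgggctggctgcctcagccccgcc
Cnn2, chr10:79988519-79988578, plus strand: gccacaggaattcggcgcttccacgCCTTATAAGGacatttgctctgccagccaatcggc
Vcl, chr14:20929148-20929205, plus strand: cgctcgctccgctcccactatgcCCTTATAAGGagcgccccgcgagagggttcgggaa
The boxes begin 47, 161, 56 and 227 bases before the RefSeq start, in that order. In the GENCODE annotation the windows of Myl9, Cnn2 and Vcl lie outside any transcript. That of Actc1 overlaps no exon and lies within introns of Actc1 and of the transcript A530058N18Rik.

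In the saline lung the muscle-restricted genes were concentrated in smooth muscle cells, the Chrm2 cluster and pericytes. Summed over the 17 genes they made up 67802 CPM in smooth muscle cells, 66928 in the Chrm2 cluster and 40496 in pericytes, against 9443 in peribronchial, 3496 in inflammatory, 3224 in proliferating, 2631 in alveolar and 1837 in adventitial cells. Csrp1 alone gave 45.6% of this sum in alveolar and 39.4% in adventitial cells. Smooth muscle cells stood 27.4 (27.2 to 27.6)-fold over alveolar and adventitial cells together for this sum, and 4.15 (4.10 to 4.19)-fold for the sum of the 17 widely expressed genes. A gene was called higher or lower in a comparison when its CPM differed at least 2-fold, reached 10 CPM on the higher side, and the exact 95% interval of the ratio lay clear of 1. By this rule 24 of the 34 genes were higher and 1 lower in smooth muscle than in alveolar and adventitial cells, where 12.3% of all genes tested were higher and 17.1% lower. The 24 were 16 of the 17 muscle-restricted genes, with Csrp1 at 1.70 (1.64 to 1.76) the exception, and 8 of the 17 widely expressed ones. The median ratio was 79.0 over the muscle-restricted and 1.90 over the widely expressed genes (6.30 and 0.92 in log2), and the median log2 ratio of all genes tested was -0.02.

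**Figure D1:**
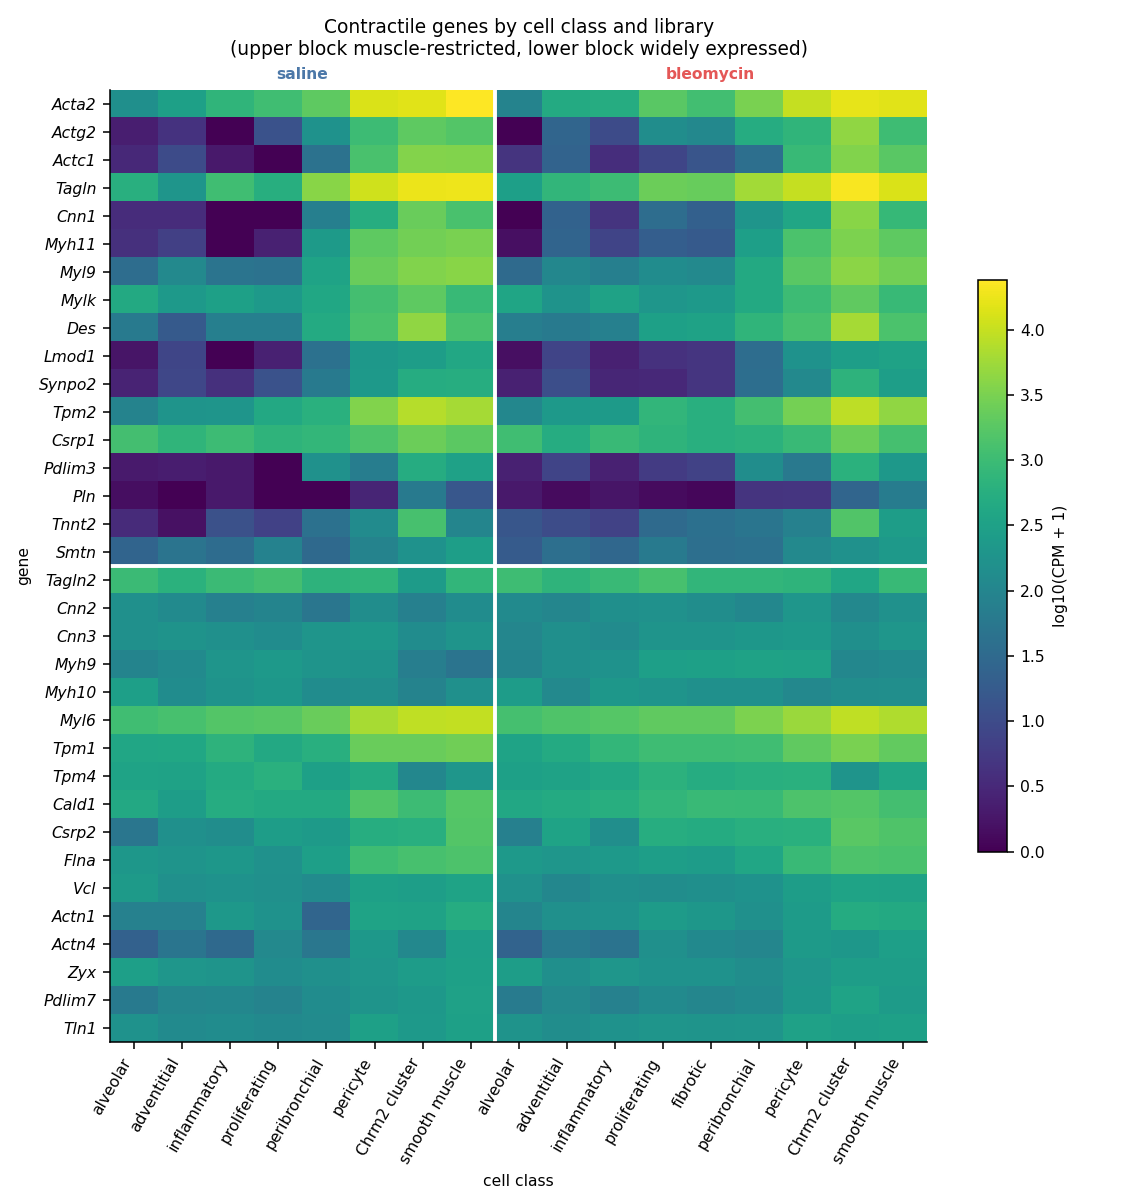
Level of each of the 34 genes (rows, as log10 of CPM plus 1, color) in each cell class of the saline (left) and bleomycin (right) library, with muscle-restricted genes in the upper block. The smooth muscle, Chrm2 and pericyte columns are brightest in the upper block, as for Acta2 at 23953 CPM in saline smooth muscle cells against 153 CPM in alveolar cells.

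The actins come first, as the thin filament on which contraction runs. Acta2, the smooth muscle alpha actin (chromosome 19, 34241090 to 34255590, minus strand, mm10), stood in saline at 153 in alveolar, 303 in adventitial, 738 in inflammatory, 1078 in proliferating, 2002 in peribronchial, 23953 in smooth muscle, 15067 in Chrm2 and 13629.8 in pericyte cells, in CPM. In bleomycin Acta2 stood at 88.5 in alveolar, 476 in adventitial, 505 in inflammatory, 1121 in fibrotic, 1833 in proliferating, 3114 in peribronchial, 15095 in smooth muscle, 16306 in Chrm2 and 9786 in pericyte cells. Smooth muscle cells were highest in saline and the Chrm2 cluster in bleomycin, and alveolar cells were lowest in both. Actg2, the gamma actin of visceral smooth muscle, was at 1.38 in alveolar, 3.34 in adventitial, 0 (at most 3.0) in inflammatory, 11.9 in proliferating, 169 in peribronchial, 1587 in smooth muscle, 1978 in Chrm2 and 991 in pericyte cells in saline, where a 0 is given with the level that 3 UMIs would have. In bleomycin Actg2 reached 0 (at most 1.53) in alveolar, 26.0 in adventitial, 9.2 in inflammatory, 108 in fibrotic, 139 in proliferating, 509 in peribronchial, 1063 in smooth muscle, 4452 in Chrm2 and 728 in pericyte cells. Actc1, the cardiac alpha actin, was at 2.23 in alveolar, 9.08 in adventitial, 1.0 in inflammatory, 0 (at most 4.45) in proliferating, 44.1 in peribronchial, 3530.0 in smooth muscle, 3751 in Chrm2 and 1321 in pericyte cells in saline. In bleomycin Actc1 was at 3.58 in alveolar, 23.9 in adventitial, 2.74 in inflammatory, 13.1 in fibrotic, 7.36 in proliferating, 39.2 in peribronchial, 1826 in smooth muscle, 3501 in Chrm2 and 877 in pericyte cells. Actg2 was thus present in peribronchial cells of both libraries and in proliferating and fibrotic cells of bleomycin. Actc1 was nearly limited to the 3 muscle and pericyte classes. Those classes held 97.5% of its saline and 90.3% of its bleomycin UMIs in mesenchymal cells. With a 3' kit each transcript is counted once whatever its length, so genes of one family can be set side by side. Acta2 gave 82.4% of the UMIs of the 3 actins in saline smooth muscle cells, and Actc1 12.1%. In the Chrm2 cluster Actg2 gave 9.51% in saline and 18.4% in bleomycin.

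The genes whose products sit on the actin filament were next. Tagln (transgelin; chromosome 9, 45929619 to 45936058, minus strand), an actin-binding protein of smooth muscle, was at 588 in alveolar, 191 in adventitial, 1083 in inflammatory, 546 in proliferating, 3934 in peribronchial, 18314 in smooth muscle, 17831 in Chrm2 and 11512 in pericyte cells in saline. In bleomycin Tagln stood at 292 in alveolar, 759.9 in adventitial, 996 in inflammatory, 2331 in fibrotic, 2458 in proliferating, 5906 in peribronchial, 13692 in smooth muscle, 21528 in Chrm2 and 10054 in pericyte cells. Unlike Acta2, it was higher in saline alveolar cells than in adventitial cells. Alveolar cells, 5758 of the 8107 saline mesenchymal cells, held 28.9% of its saline UMIs. Cnn1 (calponin 1; chromosome 9, 22099216 to 22109630, plus strand), which restrains the myosin motor, was at 2.64 in alveolar, 2.58 in adventitial, 0 (at most 3.0) in inflammatory, 0 (at most 4.45) in proliferating, 77.9 in peribronchial, 1330.1 in smooth muscle, 2399.6 in Chrm2 and 529.7 in pericyte cells in saline. In bleomycin Cnn1 was at 0 (at most 1.53) in alveolar, 22.8 in adventitial, 3.47 in inflammatory, 21.3 in fibrotic, 35.4 in proliferating, 194 in peribronchial, 854 in smooth muscle, 3931 in Chrm2 and 395 in pericyte cells. The Chrm2 cluster was highest for Cnn1 in both libraries. Cnn2, a calponin of many cell types and one of the 4 genes shown above with a CArG box, had a 3.04-fold range over the saline classes. In saline Cnn2 was at 158 in alveolar, 125 in adventitial, 80.0 in inflammatory, 93.4 in proliferating, 51.9 in peribronchial, 132 in smooth muscle, 81.0 in Chrm2 and 137 in pericyte cells. In bleomycin Cnn2 was at 123 in alveolar, 103 in adventitial, 150.0 in inflammatory, 137 in fibrotic, 164 in proliferating, 105 in peribronchial, 162 in smooth muscle, 112 in Chrm2 and 197 in pericyte cells. Cnn1 made up 91.8% of the calponin UMIs in the saline Chrm2 cluster, 80.9% in smooth muscle cells and 0.823% in alveolar cells.

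Tpm2 and Tpm1 encode tropomyosins, which lie along the actin filament. Tpm2 was at 89.6 in alveolar, 181 in adventitial, 193 in inflammatory, 440.4 in proliferating, 613 in peribronchial, 6147 in smooth muscle, 7648 in Chrm2 and 3524 in pericyte cells in saline. In bleomycin Tpm2 was at 104 in alveolar, 227 in adventitial, 246 in inflammatory, 573 in fibrotic, 775 in proliferating, 1155 in peribronchial, 4579 in smooth muscle, 8814 in Chrm2 and 2963 in pericyte cells. Tpm1 was at 393 in alveolar, 404 in adventitial, 668 in inflammatory, 442 in proliferating, 574 in peribronchial, 2701 in smooth muscle, 2391 in Chrm2 and 2359.6 in pericyte cells in saline, so Tpm1 was lower than Tpm2 in the smooth muscle, Chrm2 and pericyte classes and higher in alveolar, adventitial and inflammatory cells. In bleomycin Tpm1 was at 349 in alveolar, 473 in adventitial, 786 in inflammatory, 1039 in fibrotic, 1052 in proliferating, 1071 in peribronchial, 2108 in smooth muscle, 3190.1 in Chrm2 and 2011 in pericyte cells. Of the tropomyosin UMIs Tpm2 gave 67.9% in saline smooth muscle and 10.9% in alveolar cells, and Tpm4 gave 2.20% and 41.4%. Cald1 (caldesmon), another filament protein, was at 437 in alveolar, 270.2 in adventitial, 513 in inflammatory, 454 in proliferating, 448 in peribronchial, 1652 in smooth muscle, 1019 in Chrm2 and 1546 in pericyte cells in saline. In bleomycin Cald1 was at 429 in alveolar, 467 in adventitial, 560.3 in inflammatory, 918 in fibrotic, 756 in proliferating, 879.9 in peribronchial, 1180.5 in smooth muscle, 1610.5 in Chrm2 and 1427 in pericyte cells. Smtn (smoothelin), Lmod1 (leiomodin, which starts actin filaments) and Synpo2 (synaptopodin 2) were low outside muscle. Lmod1 was at 0.784 in alveolar, 7.17 in adventitial, 0 (at most 3.0) in inflammatory, 1.48 in proliferating, 42.4 in peribronchial, 417 in smooth muscle, 277 in Chrm2 and 212 in pericyte cells in saline. In bleomycin Lmod1 was at 0.512 in alveolar, 6.81 in adventitial, 1.54 in inflammatory, 3.73 in fibrotic, 3.20 in proliferating, 36.0 in peribronchial, 331 in smooth muscle, 279.5 in Chrm2 and 167 in pericyte cells. Synpo2 was at 1.73 in alveolar, 7.45 in adventitial, 3.0 in inflammatory, 11.9 in proliferating, 61.4 in peribronchial, 526 in smooth muscle, 509 in Chrm2 and 229.8 in pericyte cells in saline. In bleomycin Synpo2 was at 1.53 in alveolar, 10.1 in adventitial, 1.99 in inflammatory, 3.83 in fibrotic, 2.24 in proliferating, 37.7 in peribronchial, 279.7 in smooth muscle, 669.9 in Chrm2 and 115 in pericyte cells, and so led by the Chrm2 cluster. Smtn was at 24.6 in alveolar, 47.1 in adventitial, 35 in inflammatory, 87.5 in proliferating, 30.3 in peribronchial, 288 in smooth muscle, 170.5 in Chrm2 and 91.4 in pericyte cells in saline. In bleomycin Smtn was at 16.9 in alveolar, 38.1 in adventitial, 28.2 in inflammatory, 38.1 in fibrotic, 61.9 in proliferating, 42.4 in peribronchial, 227 in smooth muscle, 165 in Chrm2 and 113 in pericyte cells. Of these 3 Smtn had the smallest distance between muscle and alveolar cells.

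**Figure D2:**
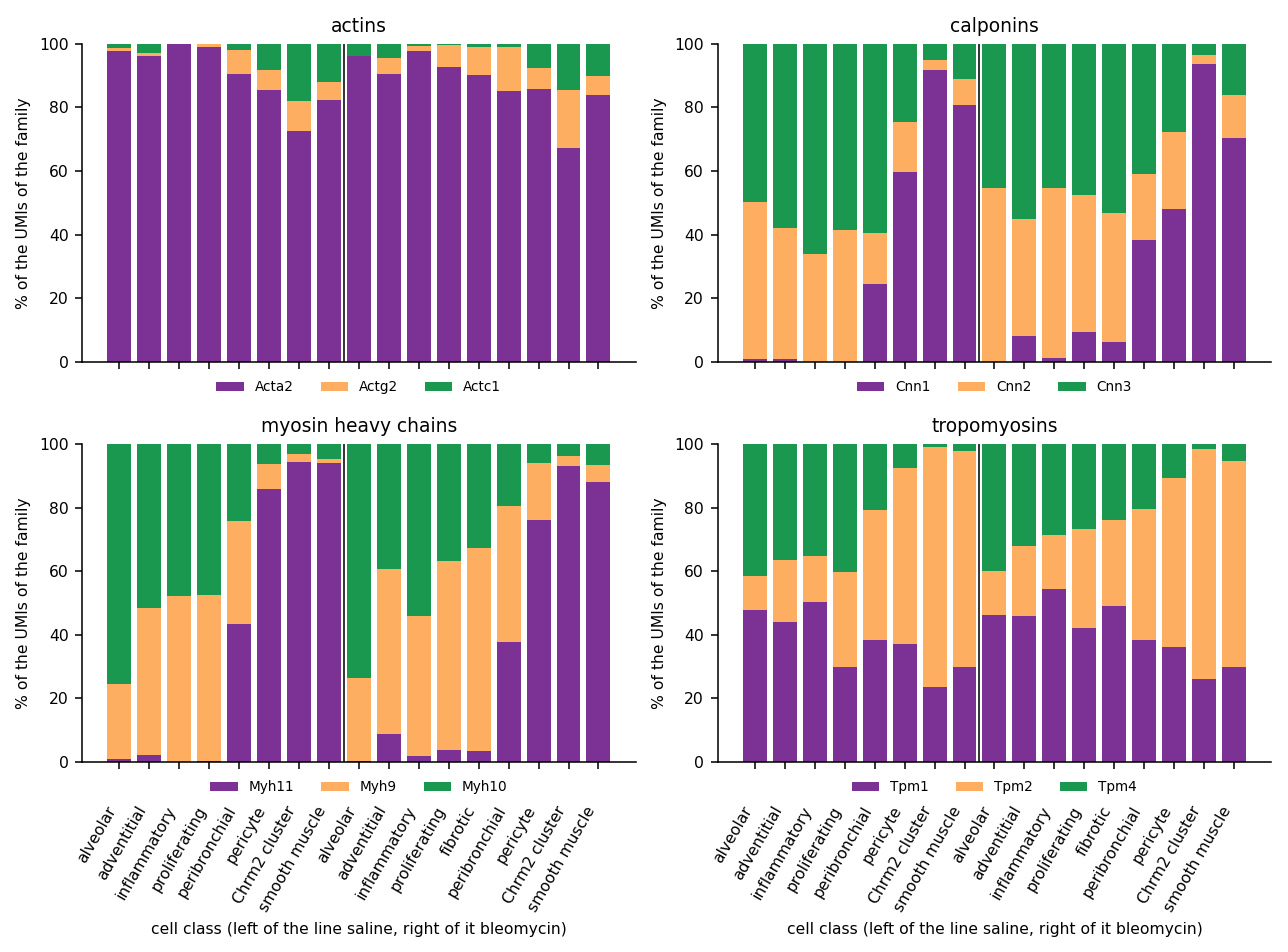
Share of the UMIs of 4 gene families (y axis, percent of the family) taken by each gene in each cell class, with saline left and bleomycin right of the line. Acta2 leads the actins in every class, while Cnn1, Myh11 and Tpm2 take most of their families in the smooth muscle and Chrm2 classes of both libraries, and in pericytes all do so but Cnn1 in bleomycin (48.2% of calponin UMIs).

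Myosin is the motor. Myh11, the smooth muscle heavy chain (chromosome 16, 14194535 to 14291372, minus strand), was at 3.02 in alveolar, 5.83 in adventitial, 0 (at most 3.0) in inflammatory, 1.48 in proliferating, 242 in peribronchial, 3154 in smooth muscle, 2836 in Chrm2 and 1985 in pericyte cells in saline. In bleomycin Myh11 was at 0.512 in alveolar, 25 in adventitial, 6.98 in inflammatory, 16.2 in fibrotic, 19.1 in proliferating, 298 in peribronchial, 1965 in smooth muscle, 3298 in Chrm2 and 1375 in pericyte cells. Fibroblasts other than peribronchial cells had little of it, with fibrotic cells at 16.2 CPM against 1965 in smooth muscle cells of the same library. Myh9, a non-muscle heavy chain (chromosome 15, 77760587 to 77842175, minus strand), ran the other way and was the gene lower in saline smooth muscle than in alveolar and adventitial cells, at 0.490 (0.390 to 0.608). Its saline levels were 92.2 in alveolar, 122 in adventitial, 191 in inflammatory, 224 in proliferating, 181 in peribronchial, 48.1 in smooth muscle, 74.6 in Chrm2 and 177 in pericyte cells. In bleomycin Myh9 was at 93.1 in alveolar, 150.0 in adventitial, 168 in inflammatory, 303 in fibrotic, 295 in proliferating, 337 in peribronchial, 123 in smooth muscle, 106 in Chrm2 and 320.0 in pericyte cells. Myh11 gave 93.9% of the heavy chain UMIs of the 3 genes in saline smooth muscle cells and 0.778% in alveolar cells, where Myh10, the other non-muscle chain, gave 75.4%.

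The light chains and their kinase followed the heavy chains only in part. Myl9, the regulatory light chain of smooth muscle and a gene shown above with a CArG box, was at 35.1 in alveolar, 115 in adventitial, 48 in inflammatory, 43.0 in proliferating, 346 in peribronchial, 4037 in smooth muscle, 3599 in Chrm2 and 2361 in pericyte cells in saline. In bleomycin Myl9 was at 31.2 in alveolar, 104 in adventitial, 75.4 in inflammatory, 116 in fibrotic, 135 in proliferating, 453 in peribronchial, 2772 in smooth muscle, 4092 in Chrm2 and 1803 in pericyte cells. Myl6, an essential light chain found in most cells, was at 1075 in alveolar, 1269.7 in adventitial, 1604 in inflammatory, 1759 in proliferating, 2426 in peribronchial, 9576 in smooth muscle, 9198 in Chrm2 and 6437 in pericyte cells in saline and so had more UMIs than Myl9 in every class. In bleomycin Myl6 was at 1236 in alveolar, 1498 in adventitial, 1665 in inflammatory, 2018 in fibrotic, 2068 in proliferating, 3262 in peribronchial, 7109 in smooth muscle, 8992 in Chrm2 and 5194 in pericyte cells. Mylk, the kinase of the light chain, was at 463 in alveolar, 222 in adventitial, 309 in inflammatory, 222 in proliferating, 407 in peribronchial, 894 in smooth muscle, 1993 in Chrm2 and 1179 in pericyte cells in saline. In bleomycin Mylk was at 371 in alveolar, 179 in adventitial, 332 in inflammatory, 231 in fibrotic, 202 in proliferating, 459 in peribronchial, 904 in smooth muscle, 2059 in Chrm2 and 985 in pericyte cells. Although listed as muscle-restricted, Mylk had 73.4% of its saline UMIs in alveolar cells, which were 71.0% of the mesenchymal cells. Myl12a and Myl12b, the non-muscle regulatory light chains, were counted in a list given further on.

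Des (desmin; chromosome 1, 75360329 to 75368579, plus strand), the intermediate filament of muscle, was at 62.2 in alveolar, 16.1 in adventitial, 76.0 in inflammatory, 75.6 in proliferating, 476 in peribronchial, 1310.1 in smooth muscle, 4499 in Chrm2 and 1311 in pericyte cells in saline. In bleomycin Des was at 73.1 in alveolar, 60.6 in adventitial, 79.5 in inflammatory, 332 in fibrotic, 309.8 in proliferating, 743 in peribronchial, 1387 in smooth muscle, 6075 in Chrm2 and 1249 in pericyte cells. Des was highest in the Chrm2 cluster, not in smooth muscle cells. Csrp2, a LIM protein, was at 50.5 in alveolar, 155 in adventitial, 141 in inflammatory, 268 in proliferating, 247 in peribronchial, 1599.8 in smooth muscle, 571 in Chrm2 and 528 in pericyte cells in saline and, though listed as widely expressed, stood 22.4 (21.4 to 23.6) times as high in smooth muscle as in alveolar and adventitial cells. In bleomycin Csrp2 was at 80.8 in alveolar, 342 in adventitial, 148 in inflammatory, 485 in fibrotic, 535 in proliferating, 578 in peribronchial, 1503 in smooth muscle, 1846 in Chrm2 and 592 in pericyte cells. Its paralog Csrp1, listed as muscle-restricted, was at 1199 in alveolar, 724 in adventitial, 999 in inflammatory, 698 in proliferating, 794 in peribronchial, 1879 in smooth muscle, 2504 in Chrm2 and 1420.2 in pericyte cells in saline. In bleomycin Csrp1 was at 1074 in alveolar, 517 in adventitial, 937 in inflammatory, 569 in fibrotic, 705 in proliferating, 664 in peribronchial, 1229 in smooth muscle, 2493 in Chrm2 and 932 in pericyte cells. Of this pair the gene listed as widely expressed had the wider range of levels over classes.

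The calcium and thin filament regulators of the heart were rare and local. Pln (phospholamban; chromosome 10, 53337667 to 53345987, plus strand), a brake on the calcium pump, was at 0.475 in alveolar, 0 (at most 0.287) in adventitial, 1.0 in inflammatory, 0 (at most 4.45) in proliferating, 0 (at most 2.60) in peribronchial, 14.3 in smooth muscle, 61.8 in Chrm2 and 1.85 in pericyte cells in saline. In bleomycin Pln was at 1.02 in alveolar, 0.358 in adventitial, 0.769 in inflammatory, 0.199 in fibrotic, 0.320 in proliferating, 3.47 in peribronchial, 67.3 in smooth muscle, 26.2 in Chrm2 and 3.83 in pericyte cells. Tnnt2, the cardiac troponin T (chromosome 1, 135836354 to 135852260, plus strand), was at 2.49 in alveolar, 0.573 in adventitial, 11 in inflammatory, 5.93 in proliferating, 42.4 in peribronchial, 98.5 in smooth muscle, 1289 in Chrm2 and 127 in pericyte cells in saline. In bleomycin Tnnt2 was at 13.8 in alveolar, 9.32 in adventitial, 6.35 in inflammatory, 39.8 in fibrotic, 31.2 in proliferating, 49.9 in peribronchial, 275 in smooth muscle, 1576 in Chrm2 and 81.8 in pericyte cells. The Chrm2 cluster held 55.5% of the saline and 40.1% of the bleomycin UMIs of Tnnt2, and the skeletal troponin Tnnt3, which is not one of the 34 genes, was at 166 and 452 CPM there. Myh6 and Tnni3, markers of heart muscle, had 0 and 1 UMI in the saline and 0 UMIs each in the bleomycin cells of the Chrm2 cluster.

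Genes that tie actin to adhesions and to each other were broader. Actn1 (alpha actinin 1), a crosslinker, was at 83.1 in alveolar, 84.2 in adventitial, 218 in inflammatory, 172 in proliferating, 26.0 in peribronchial, 507 in smooth muscle, 335 in Chrm2 and 348 in pericyte cells in saline. In bleomycin Actn1 was at 98.2 in alveolar, 157 in adventitial, 168 in inflammatory, 208 in fibrotic, 254 in proliferating, 159 in peribronchial, 456 in smooth muscle, 488 in Chrm2 and 254 in pericyte cells. Actn4 was at 22.3 in alveolar, 50.4 in adventitial, 30.0 in inflammatory, 114 in proliferating, 52.8 in peribronchial, 298 in smooth muscle, 109 in Chrm2 and 218 in pericyte cells in saline. In bleomycin Actn4 was at 24.0 in alveolar, 63.9 in adventitial, 46.4 in inflammatory, 119.6 in fibrotic, 158 in proliferating, 101 in peribronchial, 295 in smooth muscle, 204 in Chrm2 and 243 in pericyte cells. Both were highest in smooth muscle cells in saline. Flna (filamin A), another crosslinker, was at 208 in alveolar, 186 in adventitial, 209 in inflammatory, 166 in proliferating, 292 in peribronchial, 1433 in smooth muscle, 1255 in Chrm2 and 1035 in pericyte cells in saline. In bleomycin Flna was at 224 in alveolar, 202 in adventitial, 235 in inflammatory, 262 in fibrotic, 281 in proliferating, 386 in peribronchial, 1315 in smooth muscle, 1429 in Chrm2 and 915 in pericyte cells. The PDZ and LIM protein Pdlim7 was at 63.1 in alveolar, 103 in adventitial, 104 in inflammatory, 90.5 in proliferating, 132 in peribronchial, 325 in smooth muscle, 217 in Chrm2 and 186 in pericyte cells in saline. In bleomycin Pdlim7 was at 65.5 in alveolar, 116 in adventitial, 82.9 in inflammatory, 99.7 in fibrotic, 123 in proliferating, 125 in peribronchial, 253 in smooth muscle, 351 in Chrm2 and 205 in pericyte cells. Its muscle paralog Pdlim3 was at 1.07 in alveolar, 1.24 in adventitial, 1.0 in inflammatory, 0 (at most 4.45) in proliferating, 163 in peribronchial, 322 in smooth muscle, 516 in Chrm2 and 70.1 in pericyte cells in saline, which set peribronchial cells apart from the other fibroblasts. In bleomycin Pdlim3 was at 1.53 in alveolar, 6.99 in adventitial, 1.56 in inflammatory, 6.42 in fibrotic, 4.88 in proliferating, 141 in peribronchial, 217 in smooth muscle, 614 in Chrm2 and 56.9 in pericyte cells. Vcl (vinculin), Tln1 (talin) and Zyx (zyxin), proteins of focal adhesions, differed less than 2-fold between saline smooth muscle and the alveolar and adventitial cells, with ratios of 1.53, 1.90 and 1.13. Tagln2, Cnn2, Cnn3, Myh10 and Tpm4 lay between 0.585 and 1.12 in the same comparison.

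Shares of cells with a UMI were compared after each cell was thinned to 2000 UMIs, leaving out shallower cells (at most 152 of the mesenchymal cells of a library). In saline, Acta2 was seen in 13.6% of alveolar, 25.4% of adventitial and 67.2% of peribronchial cells and in all 209 smooth muscle cells, against 2.70% (0.561 to 7.70%) of the epithelial background cells. In bleomycin it was seen in 29.8% of inflammatory, 44.4% of fibrotic, 71.7% of proliferating and 78.6% of peribronchial cells, against 7.27% (3.81 to 12.4%) of background cells. Without thinning the shares were 27.2% in saline alveolar and 70.7% in bleomycin fibrotic cells. The median depths were 6794.5 UMIs in saline alveolar, 14757 in bleomycin fibrotic and 5456 and 5654 in saline and bleomycin background cells. Shares of alveolar and adventitial cells with Actg2, Actc1, Cnn1 or Myh11 in saline were between 0.144% and 0.649%, below the 1.80% to 2.70% of background cells. These background shares rest on 2 or 3 of 111 cells: Cnn1 and Myh11 were each in 2 of the 3 background cells with an Acta2 UMI and in 0 of the other 108, and the interval for each of the 2 genes was 0.219 to 6.36%.

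Within smooth muscle cells most muscle-restricted genes were lower in bleomycin than in saline, by less than 2-fold, and 3 genes were higher. The muscle-restricted sum was 67802 CPM in saline and 46763 in bleomycin, a ratio of 0.690 (0.684 to 0.695), and the widely expressed sum 20539.7 and 17021, a ratio of 0.829 (0.817 to 0.840). Per cell the muscle-restricted sum had a median of 678 UMIs in 10000 in saline, with quartiles of 536 and 801, and a median of 410.2 with quartiles of 299 and 578 in bleomycin. Of the 34 genes 10 had a ratio over 1, 4 of them muscle-restricted. The median ratio was 0.686 over the muscle-restricted and 0.939 over the widely expressed genes, that is -0.54 and -0.09 in log2, against 0.07 for all 7835 genes tested. Acta2 was at 0.630 (0.621 to 0.639) of its saline level, Myh11 at 0.623 (0.60 to 0.648), Actc1 at 0.517 (0.498 to 0.537), Synpo2 at 0.531 (0.481 to 0.587) and Tagln at 0.748 (0.736 to 0.759), while Des and Mylk were at 1.06 (1.0 to 1.12) and 1.0 (0.948 to 1.08).

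By the rule of size 3 of the 34 genes were higher in bleomycin smooth muscle cells and 0 lower, where 4.93% of all genes were higher and 2.81% lower. In saline Pln stood at 14.3 (9.26 to 21.1) CPM, in bleomycin at 67.3 (57.6 to 78.1), a ratio of 4.70 (3.08 to 7.46). In saline Tnnt2 stood at 98.5 (84.3 to 114) CPM, in bleomycin at 275 (255 to 296), a ratio of 2.79 (2.36 to 3.31). In saline Myh9 stood at 48.1 (38.4 to 59.5) CPM, in bleomycin at 123 (109 to 137), a ratio of 2.55 (2.00 to 3.29). Tpm4, the non-muscle tropomyosin, was just below the rule at 1.93 (1.71 to 2.19). Of the 34 genes 0 passed the rule at a finer clustering and 1 passed when the 34 genes were allowed in the clustering. In both of these clusterings fewer saline cells carried the pericyte name (22 and 25) and more the smooth muscle name. When smooth muscle cells and pericytes were joined, 2 of the 3 calls held and the muscle-restricted ratio was 0.715. The Sncg subcluster, 191 of the 288 bleomycin but 7 of the 212 saline cells, had Pln at 89.6 CPM. In the Sost subcluster alone the ratio of Pln was 2.28 (1.28 to 4.12), that of Tnnt2 2.85 (2.34 to 3.48), that of Myh9 2.68 (2.00 to 3.61) and that of Acta2 0.759 (0.746 to 0.772), and the muscle-restricted sum stood at 0.752 (0.744 to 0.760). There 4 of the 34 genes, these 3 and Tpm4, were higher and 0 lower, where 4.61% of all genes were higher and 2.81% lower. The summed smooth muscle marker list stood at 4602 CPM in smooth muscle cells of saline and 5003 CPM in those of bleomycin and the pericyte list at 809 and 1014 CPM, and their part in these ratios was not tested.

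**Figure D3:**
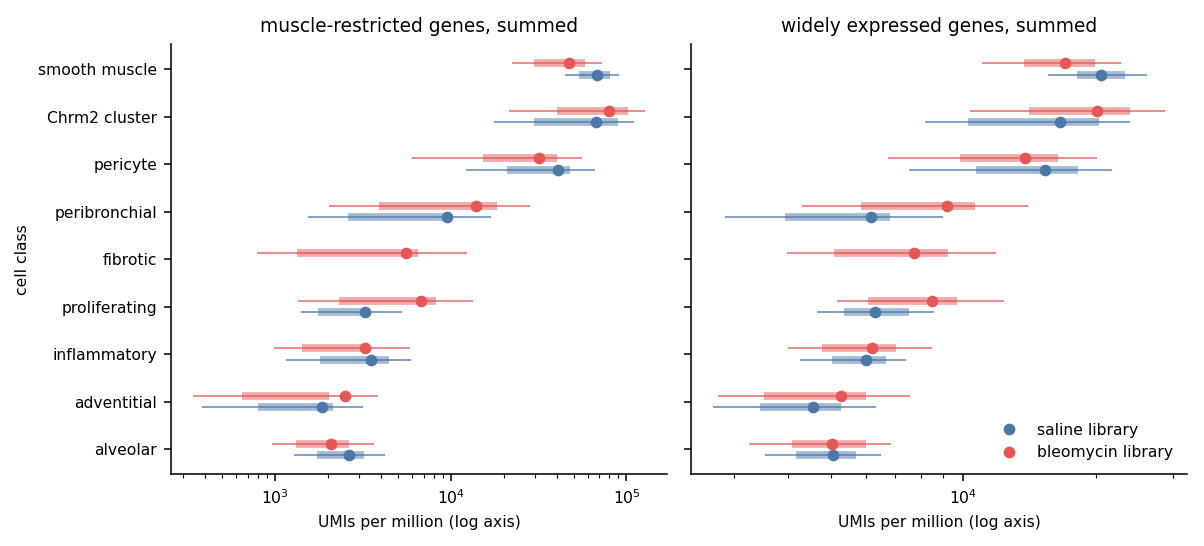
Summed level of the 17 muscle-restricted (left) and 17 widely expressed genes (right) in each cell class, in CPM on a log axis. Points are the class totals, thick bars the quartiles and thin bars the 10th to 90th percentile of single cells; the saline point lies above the bleomycin point in smooth muscle cells (67802 against 46763 for muscle-restricted genes) and below it in peribronchial cells (9443 against 13846).

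In the Chrm2 cluster the muscle-restricted level was slightly higher in bleomycin, with sums of 66928 and 79880.0 CPM and a ratio of 1.19 (1.18 to 1.21). Here 2 of the 34 genes were higher and 1 lower in bleomycin, against 3.29% higher and 4.05% lower of all genes. Actg2 had a ratio of 2.25 (2.10 to 2.41), Csrp2 of 3.23 (2.85 to 3.68) and Pln of 0.424 (0.256 to 0.711). Pln thus lay on opposite sides in the Chrm2 cluster and in smooth muscle cells, a difference that was not tested. Beside smooth muscle cells of its own library, the Chrm2 cluster had 4 higher and 3 lower genes in saline (8.02% and 6.75% of all genes) and 8 higher and 3 lower in bleomycin (5.84% and 7.44%). Mylk, Des and Tnnt2 were higher in both libraries, with Des at 3.43 (3.24 to 3.64) and 4.38 (4.21 to 4.56) and Tnnt2 at 13.1 (11 to 15.6) and 5.74 (5.27 to 6.26), and Tagln2 was lower in both at 0.327 (0.269 to 0.395) and 0.444 (0.405 to 0.487). Pln was higher in saline, at 4.32 (2.44 to 7.69), and lower in bleomycin, at 0.390 (0.268 to 0.554), and in 3 other clusterings the bleomycin ratio was 1.02 to 1.35. In bleomycin Actg2, Cnn1, Synpo2, Csrp1 and Pdlim3 were also higher, led by Cnn1 at 4.60 (4.38 to 4.84). Pericytes had muscle-restricted sums of 40496 and 31685 CPM, a ratio of 0.782 (0.772 to 0.793), and 0 of the 34 genes passed the rule in either direction, against 4.56% higher and 3.5% lower of all genes.

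Peribronchial fibroblasts had more of both sets in bleomycin, with a ratio of 1.47 (1.44 to 1.5) for the muscle-restricted and 1.49 (1.45 to 1.53) for the widely expressed sum. Of the 34 genes 5 were higher and 0 lower, where 9.47% of all genes were higher and 8.77% lower, and 33 genes reached 10 CPM. Actg2 was at 169 CPM in saline and 509 in bleomycin, a ratio of 3.02 (2.60 to 3.51). Cnn1 had a ratio of 2.50 (2.00 to 3.14), Csrp2 of 2.34 (2.07 to 2.66), Cnn2 of 2.03 (1.55 to 2.71) and Actn1 of 6.14 (4.26 to 9.18). The share of cells with Actg2 was 13.4% in saline and 38.4% in bleomycin, and with Myh11 22.3% and 35.4%, after thinning to the same depth. In saline the 4 of 323 cells with the most Cnn1 held 83.3% of its UMIs. The class is filled by the Cyp2e1 subcluster in saline and the Pappa2 subcluster in bleomycin, with median depths of 3108 and 9137 UMIs. Within the Cyp2e1 subcluster alone the muscle-restricted sum was 8586 CPM in saline and 9092 in bleomycin, and the widely expressed sum 5936 and 6212. There 0 of the 34 genes passed the rule, with 21 bleomycin cells. Subcluster, depth and treatment thus cannot be told apart for these 5 genes or for the sums. The summed smooth muscle marker list was at 2328 CPM in the saline and 1432 in the bleomycin cells, and its part was not tested.

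In adventitial fibroblasts the muscle-restricted sum was 1.36 (1.33 to 1.38) times its saline level, and 7 of the 34 genes were higher and 0 lower, where 3.37% of all genes were higher and 3.72% lower, and 30 genes reached 10 CPM. In saline Tagln stood at 191 CPM, in bleomycin at 759.9, a ratio of 3.97 (3.78 to 4.17). Des had a ratio of 3.77 (3.18 to 4.5) and Csrp2 of 2.21 (2.08 to 2.34). The other 4 genes, Actg2 at 7.77 (5.46 to 11.4), Cnn1 at 8.82 (5.92 to 13.7), Myh11 at 4.29 (3.24 to 5.76) and Actc1 at 2.64 (2.08 to 3.37), came from few cells. In bleomycin the 12 of 1125 cells richest in each gene held 94.4% of the Actc1, 86.2% of the Cnn1, 83.2% of the Myh11 and 69.7% of the Actg2 UMIs, but 23.5% of the Tagln UMIs. The shares of thinned cells with these 4 genes were 1.13% to 2.07%, within the intervals of the background cells, which rest on 1 to 3 of 165 cells and for Myh11 gave 1.82% (0.377 to 5.22%). Tagln was seen in 16.2% of saline and 32.2% of bleomycin cells, above the background of 7.27% (3.81 to 12.4%). The smooth muscle marker list summed to 504 CPM in saline and 339 in bleomycin adventitial cells, with none of its genes at 0. Without the cells of highest doublet score 4 genes were called, and Actc1 then lay below its saline level at 0.785. With the 34 genes allowed in the clustering 3 were called, with Actc1 at 0.659 and Myh11 at 0.842.

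Alveolar fibroblasts went the other way for Tagln, which was at 588 CPM in saline and 292 in bleomycin, a ratio of 0.496 (0.456 to 0.539). The ratio of Tagln no longer reached 2-fold at the finer resolution (0.892, with 1077 bleomycin cells in the class), under the stricter cell filter (0.840), with the 34 genes in the clustering (0.538), after thinning (0.567) and without high doublet scores (0.502). The muscle-restricted sum had a ratio of 0.788 (0.764 to 0.813), with Csrp1 giving 45.6% of it in saline and 51.8% in bleomycin. Tnnt2 was higher at 5.54 (3.49 to 8.52), on 27 UMIs in bleomycin of which 18 lay in 3 cells. Together 1 of the 34 genes was higher and 1 lower, where 1.79% of all genes were higher and 0.85% lower. In inflammatory fibroblasts 0 of the 34 genes passed in either direction, against 3.79% higher and 2.34% lower of all genes, and the muscle-restricted ratio was 0.925 (0.895 to 0.957) with 80 saline cells. Over all mesenchymal cells of each library the muscle-restricted ratio was 1.13 (1.13 to 1.14) and the widely expressed ratio 1.27 (1.27 to 1.28). At that level 4 of the 34 genes were higher and 0 lower, against 5.62% and 5.92% of all genes: Csrp2 at 2.70, Tnnt2 at 2.40, Myh9 at 2.19 and Actn4 at 2.19. The total came from different cells in each library: the smooth muscle, Chrm2 and pericyte classes together had 82.6% of saline and 40.6% of bleomycin Acta2 UMIs while making up 5.34% and 6.69% of the mesenchymal cells. Fibrotic cells were 2425 of the 9671 bleomycin mesenchymal cells and gave 40212404 of their 131326586 UMIs of all genes. They held 23.5% of the bleomycin Acta2 UMIs, 31.7% of the Tagln, 33.4% of the Des and 40.5% of the Csrp2 UMIs.

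**Figure D4:**
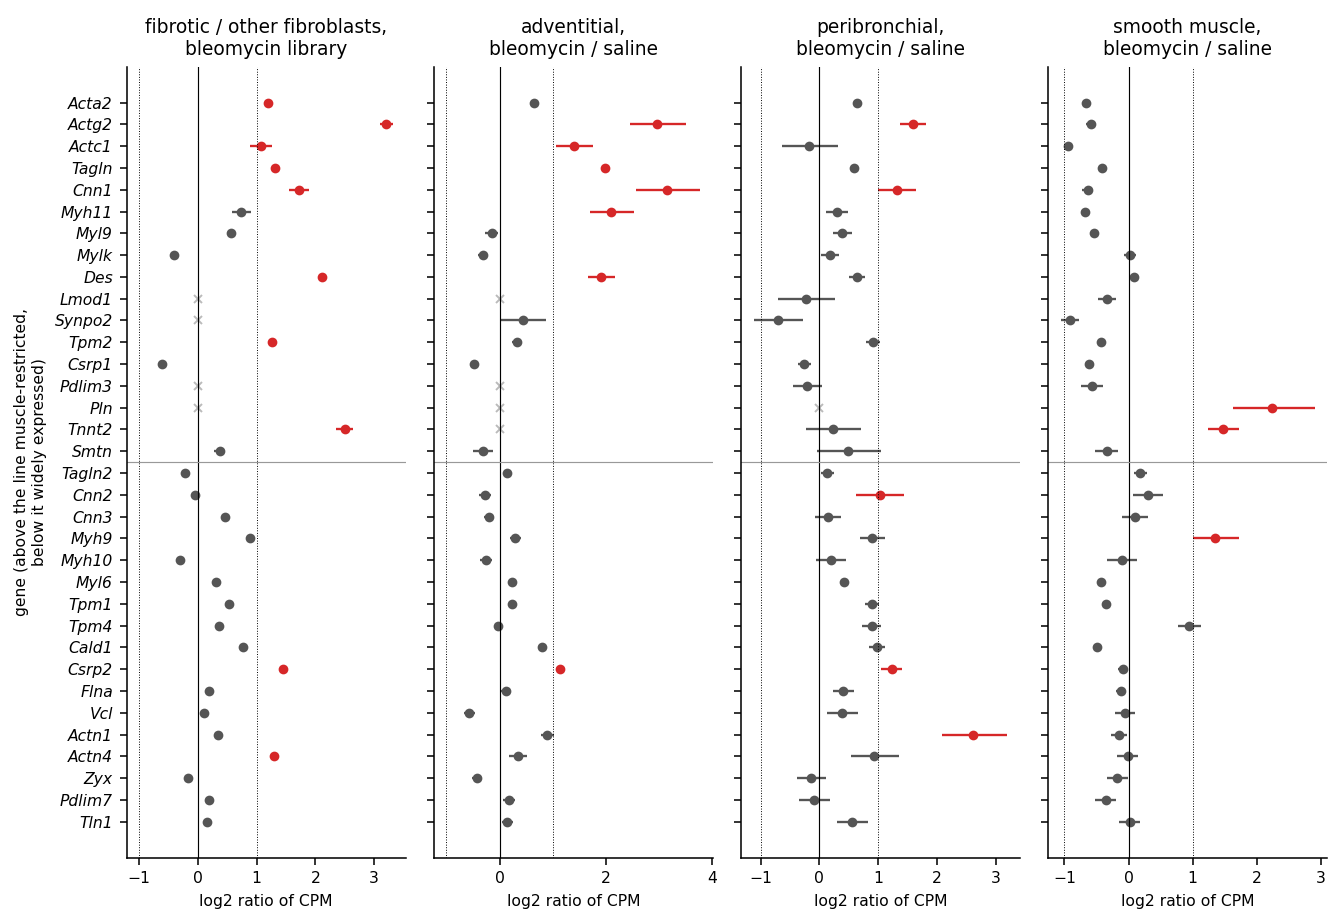
Log2 ratio of CPM for each of the 34 genes with its exact 95% interval for counting error in 4 comparisons, red where higher by the rule of size, grey where neither, and a cross where the gene did not reach 10 CPM. In smooth muscle cells most muscle-restricted genes lie left of 0 with Pln and Tnnt2 to the right, and in fibrotic over other fibroblasts 8 muscle-restricted genes lie past 2-fold to the right.

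Fibrotic fibroblasts, the cells with high Cthrc1, Postn and collagen genes, had more contractile transcripts than the alveolar, adventitial and inflammatory fibroblasts of the bleomycin library, fewer than the proliferating and peribronchial ones and far fewer than muscle. Their muscle-restricted sum was 5525 CPM, against 3082 in alveolar, adventitial and inflammatory cells together, a ratio of 1.79 (1.78 to 1.80), and 6722 in proliferating and 13846 in peribronchial cells. In the same comparison, which is called fibrotic over other fibroblasts, the widely expressed sum had a ratio of 1.28 (1.28 to 1.29). Of the 34 genes 10 were higher and 0 lower, where 3.49% of all genes were higher and 5.57% lower, and 30 genes reached 10 CPM. Acta2 was at 1121 CPM against 489, a ratio of 2.29 (2.26 to 2.33). Tagln was at 2331 against 938 CPM, a ratio of 2.49 (2.46 to 2.51), and Tpm2 had a ratio of 2.39 (2.35 to 2.44). Des had a ratio of 4.35 (4.22 to 4.5), Tnnt2 of 5.66 (5.11 to 6.27), Actg2 of 9.26 (8.59 to 10.00), Cnn1 of 3.29 (2.93 to 3.69) and Actc1 of 2.12 (1.86 to 2.41). The widely expressed genes called were Csrp2 at 2.74 (2.68 to 2.81) and Actn4 at 2.46 (2.35 to 2.57), and Myh9 was just below the rule at 1.86 (1.81 to 1.91). The smooth muscle marker list summed to 333 CPM in fibrotic cells. Myh11, Lmod1, Synpo2 and Pdlim3 were at 16.2, 3.73, 3.83 and 6.42 CPM in fibrotic cells.

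The 10 genes differed in how many fibrotic cells carried them. After thinning, Tagln was seen in 61.4%, Tpm2 in 50.2%, Acta2 in 44.4%, Csrp2 in 40.0% and Des in 34.9% of fibrotic cells, against 7.27%, 10.3%, 7.27%, 4.85% and 1.21% of background cells. Actg2 was seen in 10.6% (9.36 to 11.9%) against 0.606% (0.0153 to 3.33%), and Tnnt2 in 5.70% against 0 of 165 background cells, which allows a share of up to 1.82% when set at 3 cells. Cnn1 at 2.45% (1.87 to 3.15%) lay within the interval of its background, 0.606% (0.0153 to 3.33%), and Actc1 at 0.541% lay below its background of 0.606%, each background share being 1 of 165 cells. Cnn1 was higher in fibrotic cells than in the other fibroblasts, at 0.736% (0.529 to 0.997%), and it was seen in 4.96% (3.74 to 6.44%) of the fibrotic cells with an Acta2 UMI and 0.449% (0.165 to 0.975%) of those without. The 25 fibrotic cells richest in a gene (1% of the class) held 92.0% of the Actc1, 50.7% of the Cnn1 and 62.9% of the Myh11 UMIs, against 9.92% of the Tagln and 13.9% of the Acta2 UMIs. Per cell the muscle-restricted sum in 10000 UMIs had a median of 26.5 and a 90th percentile of 124 in fibrotic cells, and of 21.4 and 58.4 in inflammatory cells. The medians of these classes were thus closer than their totals. Among thinned fibrotic cells Cthrc1, a marker that named the class, was seen in 51.4% (48.4 to 54.4%) of the 1068 cells with an Acta2 UMI and in 27.3% (24.9 to 29.8%) of the 1336 without, and Tagln in 89.1% and 39.1%. In the other fibroblasts of bleomycin, Cthrc1 was seen in 4.94% of cells with an Acta2 UMI and 2.69% without. Tagln was seen there in 71.1% and 31.0% and Cnn1 in 1.92% and 0.274%, so these pairings were not particular to fibrotic cells.

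Against the other contractile classes of the bleomycin library fibrotic cells were low. All 17 muscle-restricted genes were lower than in smooth muscle cells, from Csrp1 at 0.463 (0.446 to 0.481) and Mylk at 0.256 (0.244 to 0.268) to Actc1 at 0.00718 (0.00655 to 0.00786) and Pln at 0.00296 (0.00126 to 0.00596), and in total 25 of the 34 genes were lower and 1 higher, where 12.4% of all genes were lower and 12.4% higher. The gene that was higher was Myh9, at 2.47 (2.21 to 2.77), and the 8 widely expressed genes that were lower ran from Flna at 0.199 through Myl6, Csrp2, Pdlim7, Actn4, Actn1 and Vcl to Tpm1 at 0.493. Against the Chrm2 cluster 24 of the 34 genes were lower and 2 higher, where 12% of all genes were lower and 14.2% higher. Against peribronchial cells 12 of the 34 genes were lower and 0 higher, all 12 muscle-restricted, where 4.62% of all genes were lower and 5.24% higher. Acta2 stood at 0.360 (0.353 to 0.367) and Myh11 at 0.0545 (0.0495 to 0.0600) of the peribronchial level, and the widely expressed sum at 0.838 (0.829 to 0.847). The Acta2 and Tagln levels of fibrotic cells thus came with little Myh11: for each 100 Acta2 UMIs there were 1.45 of Myh11 in fibrotic, 9.56 in peribronchial and 13.0 in smooth muscle cells of bleomycin.

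Within the fibrotic class the contractile genes were uneven. The class was split on other genes into subclusters led by Gdf15 and Mdm2 (272 cells, with immunoglobulin transcripts first among its leading genes), Vegfd and Hp (683), Penk and Il11 (476), Lum and Thbs4 (772, where Cthrc1 also led) and Crabp2 and Aldh1a3 (213). Their muscle-restricted sums were 2104, 4027, 3861, 7029 and 10949 CPM in that order. Acta2 was at 290.2, 631, 750.1, 1372 and 2954 CPM, and Csrp2 at 131, 202, 267, 714 and 1264. Des did not follow this order, at 349, 198, 289, 293 and 814 CPM, and Tnnt2 peaked in the Lum and Thbs4 cells at 64.8 CPM against 25.5 in the Crabp2 cells. Of these 5 the Crabp2 cells were also the deepest, with a median of 22097 UMIs against 10251.5 in the Gdf15 cells, and the part of depth was not tested. Between the Lum and the Vegfd cells, which are close in depth (13788.5 and 14630), 9 of the 34 genes were higher in the Lum cells and 0 lower, where 2.18% of all genes were higher and 3.3% lower. These were Acta2 at 2.17 (2.11 to 2.23), Csrp2 at 3.53 (3.37 to 3.70), Actg2, Actc1, Cnn1, Myh11, Myl9, Pdlim3 and Tnnt2.

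**Figure D5:**
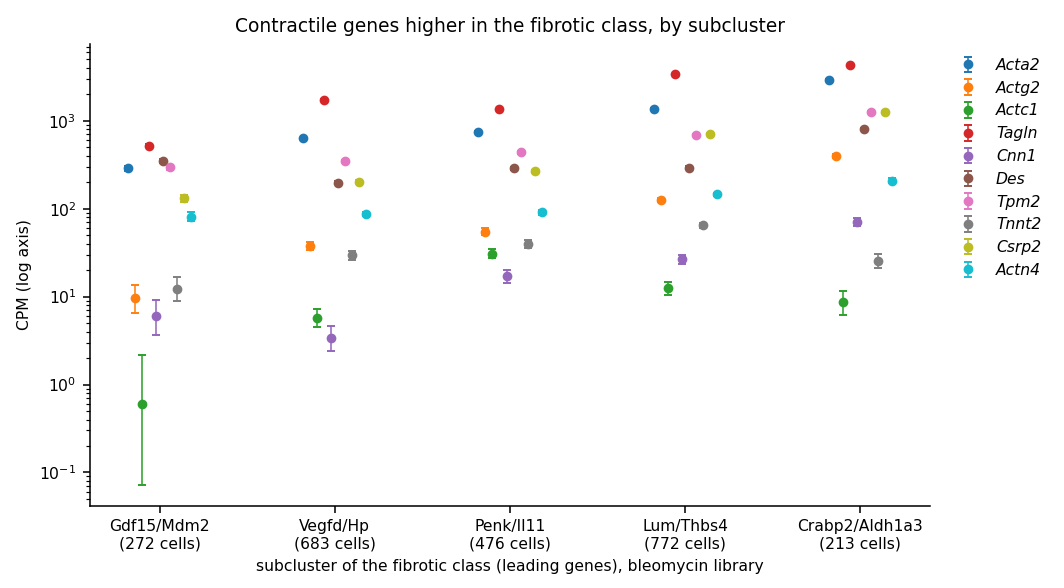
Level (CPM, log axis) of the 10 genes higher in fibrotic than in other fibroblasts, in 5 subclusters of the fibrotic class of the bleomycin library, with exact 95% Poisson intervals for counting error. Acta2 runs from 290 CPM in the Gdf15 and Mdm2 cells to 2954 CPM in the Crabp2 and Aldh1a3 cells.

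Other genes of the pathway were taken from 4 lists. Of 12 SRF partners and related factors, all measured, 4 were higher and 0 lower in saline smooth muscle than in alveolar and adventitial cells, against 12.3% higher and 17.1% lower of all genes, with Myocd (myocardin) at 109.9 against 0.456 CPM, Ankrd1 at 22.5 (17.5 to 28.9) and Fhl2 at 5.29 (3.86 to 7.12). Myocd is also on the marker list that named smooth muscle, so its level is no finding. In fibrotic over other fibroblasts 2 of the 12 were higher and 1 lower, against 3.49% and 5.57% of all genes: Ankrd1 at 2.55 (2.23 to 2.92), Fhl2 at 2.04 (1.87 to 2.23) and, lower, Fhl1 at 0.444 (0.434 to 0.454). Of 19 genes that set the phosphorylation of the light chain (17 at 10 CPM or more), 4 were higher and 1 lower in saline smooth muscle (12.3% and 17.1% of all genes), led by Ppp1r12a, the targeting subunit of the myosin phosphatase, at 10.5 (9.80 to 11.1), with Myl12b lower at 0.376 (0.324 to 0.433). Ppp1r14a and Ppp1r12b of this list are also on the marker list that named smooth muscle, so the naming bears on this count. In bleomycin over saline smooth muscle cells Ppp1r14b, a phosphatase inhibitor, was higher at 2.05 (1.69 to 2.50), where 4.93% of all genes were higher. Rnd3, a small GTPase, was lower at 0.476 (0.381 to 0.592), where 2.81% of all genes were lower. In the Sost subcluster alone 0 of the 17 measured genes of this list were higher and 0 lower. In peribronchial cells Ppp1r14b and Rnd3 had ratios of 2.95 (2.46 to 3.55) and 0.296 (0.241 to 0.364), and Ppp1r12a and Ppp1r12b were lower too. There 9.47% of all genes were higher and 8.77% lower, and subcluster, depth and treatment cannot be told apart.

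Of 24 calcium and receptor genes, 19 of them measured, 10 were higher and 2 lower in saline smooth muscle than in alveolar and adventitial cells, again beside 12.3% and 17.1% of all genes. The highest ratios were those of Kcnmb1, which is on the marker list, Kcnma1, a subunit of the same potassium channel, at 223 (87.3 to 726), and Ryr2, a calcium release channel, at 1595 (274 to 64192) with 1 UMI in the fibroblasts. Kcnma1 was the 1 gene of this list called in bleomycin over saline smooth muscle cells, lower at 0.334 (0.179 to 0.602), where 2.81% of all genes were lower. In peribronchial cells Gucy1a1, Ednrb and Chrm2 were lower in bleomycin, with Ednrb, an endothelin receptor, at 0.363 (0.285 to 0.464). There 8.77% of all genes were lower, and subcluster, depth and treatment cannot be told apart. Of 35 other actin filament and adhesion genes, 33 of them measured, 15 were higher and 4 lower in saline smooth muscle in that comparison, with Pdlim4 at 143 (123 to 168) and the actin-severing Dstn at 10.1 (9.88 to 10.4), and the thymosin Tmsb10 and the bundling protein Fscn1 lower at 0.105 (0.0981 to 0.112) and 0.0366 (0.000926 to 0.205). Ldb3 and Nexn of this list are also on the marker list that named smooth muscle, so the naming bears on this count too. In fibrotic over other fibroblasts 6 of the 35 were higher and 0 lower, beside 3.49% and 5.57% of all genes, with Pdlim4 at 7.98 (7.31 to 8.72) and Tes (testin) at 7.95 (7.09 to 8.94). Pdlim4 was lower in bleomycin than in saline smooth muscle cells, at 0.359 (0.321 to 0.400). It was the 1 gene of this list called there, where 2.81% of all genes were lower.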

How the data were processed

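The deposited 10x count matrices hold whole-number UMI counts per gene and barcode for 1 saline and 1 bleomycin library, made by the authors with Cell Ranger 6.1.2 on mm10, per the submitters' processing notes; doublet removal before deposit is not given in the sources used here. Cells with at least 500 genes and at most 10% mitochondrial UMIs were kept, and Scrublet (in scanpy 1.11.5, expected rate 7%) marked doublets. Clustering used 2000 variable genes without the 34 genes, 30 principal components, 15 neighbours and Leiden resolution 0.5 (python 3.11.15, numpy 2.4.6, scipy 1.17.1, pandas 2.3.3, scikit-learn 1.9.0, igraph 0.11.9). A cluster took a name from at least 3 markers raised 1.5-fold with a median log2 fold of at least 0.5, and 839 and 964 cells of 2 muscle and peribronchial clusters were clustered again. UMIs were summed per class and library and divided by all UMIs of the class. Intervals (95%) are exact: Poisson for CPM, Clopper-Pearson for shares and conditional binomial for ratios. UMIs mark molecules, and the intervals leave out differences between mice. A level at 0 is given with that of 3 UMIs, and a share at 0 with that of 3 cells. The text names every gene that passed the rule of size in a main comparison (bleomycin over saline in smooth muscle, peribronchial, adventitial and all mesenchymal cells, fibrotic over other fibroblasts, smooth muscle over alveolar and adventitial cells) with its level in each class, and most others by range. The 34 genes and all lists were chosen with earlier results of these data known. Scripts were tested on simulated counts. Alternatives were another resolution, the 34 genes in the clustering, a stricter cell filter, no cells of high doublet score, thinning, other scalings, background subtraction and other thresholds. The values of 1 gene of the pathway lists are not reported here.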

Additional observations from a re-analysis of the deposited data

Results flagged for a closer look

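Pln differed in direction between 2 cell classes under the same contrast. It was 4.70 times its saline level in smooth muscle cells of the bleomycin library and 0.424 times in the Chrm2 cluster. In the Sost subcluster alone the ratio of Pln was 2.28, and at the finer resolution Pln did not pass the rule in smooth muscle cells. Tagln also differed in direction, at 3.97 in adventitial and 0.496 in alveolar fibroblasts, though the alveolar ratio was 0.892 at the finer resolution. The muscle-restricted sum had bleomycin over saline ratios of 0.690 in smooth muscle cells, 0.782 in pericytes, 0.788 in alveolar and 0.925 in inflammatory fibroblasts, and of 1.19 in the Chrm2 cluster, 1.36 in adventitial and 1.47 in peribronchial fibroblasts. With 1 library per treatment these differences between classes were not tested.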

How the results depend on the processing

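No paired analysis was possible because each treatment had 1 library. Comparisons of the alveolar, inflammatory, pericyte and Chrm2 classes, of the Chrm2 cluster over smooth muscle and of fibrotic over smooth muscle, Chrm2 and peribronchial cells, and the comparisons of or fits on single subclusters or joined classes, were chosen after seeing the data. Of 929 values of single called genes under an alternative, 853 kept direction and side of the rule, 70 no longer passed it and 6 reversed. As only called genes were followed, the 1.5-fold and no-minimum alternatives could only keep a call, and each kept 89 of 89. With background subtracted 50 values had a finite ratio and the others were left out. The saline background had a muscle-restricted sum of 2910 CPM, above the 2631 of alveolar and 1837 of adventitial cells. Scaled per cell as for smooth muscle cells, its median was only 3.96, against 23.7 in alveolar cells. A minority of its cells thus set that level. Counts of genes in fibroblast classes with background subtracted therefore cannot show the effect of stray RNA. The cause of each shift was not tested.

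The number of genes apart in smooth muscle cells (3) was 0 at the finer resolution, 1 with the 34 genes in the clustering, 6 after thinning and 10 at 1.5-fold. The muscle-restricted ratio there (0.690) was 0.708 at the finer resolution, 0.755 with the 34 genes, 0.651 with the stricter filter, 0.804 without high doublet scores, 0.661 thinned, 0.672 per UMI of other genes, 0.669 by median of ratios, 0.704 with background subtracted, 0.722 without its top gene, 0.752 in the Sost subcluster and 0.715 joined with pericytes. The widely expressed ratio (0.829) was 0.902 with the 34 genes, 0.919 without high doublet scores, 0.807 per UMI of other genes, 0.804 by median of ratios, 0.771 with background subtracted, 0.904 without its top gene, 0.922 in the Sost subcluster and 0.851 joined.

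In peribronchial cells the number (5) was 9 at the finer resolution, 2 with the 34 genes, 10 with the stricter filter, 9 thinned, 15 with background subtracted, 15 at 1.5-fold and 0 in the Cyp2e1 subcluster. In adventitial cells (7) it was 3 with the 34 genes, 4 without high doublet scores, 12 with background subtracted and 3 at 50 CPM. Actc1 reversed there to 0.659 with the 34 genes and 0.785 without high doublet scores, and Myh11 to 0.842 with the 34 genes. Over all mesenchymal cells (4) it was 11 with background subtracted and 11 at 1.5-fold. In alveolar cells (2) it was 0 at the finer resolution, 1 with the 34 genes, 1 with the stricter filter, 7 with background subtracted, 5 at 1.5-fold, 1 at 50 CPM and 4 with no minimum. In inflammatory cells (0) it was 1 at the finer resolution, 2 with the stricter filter, 1 thinned, 8 with background subtracted, 3 at 1.5-fold and 2 with no minimum. In pericytes (0) it was 3, 5, 2 and 1 for the finer resolution, the 34 genes, the stricter filter and no high doublet scores, 1 per UMI of other genes, 1 by median of ratios, 4 with background subtracted and 5 at 1.5-fold.

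In the Chrm2 cluster (3) it was 5 with background subtracted and 9 at 1.5-fold. Over smooth muscle cells it was 18 at 1.5-fold in saline (7) and 7 without high doublet scores in bleomycin (11), where Pln (0.390) reversed to 1.35 at the finer resolution, 1.12 with the 34 genes and 1.02 with the stricter filter. In fibrotic over other fibroblasts the muscle-restricted ratio (1.79) was 2.21 at the finer resolution, 1.98 with the 34 genes, 1.91 without high doublet scores, 1.71 by median of ratios, 2.21 with background subtracted and 1.49 without its top gene. The widely expressed ratio (1.28) was 1.40, 1.33, 1.29, 1.22, 1.65 and 1.30 in the same order. Fibrotic cells could not be compared under the stricter filter, where no cluster took that name. Fibrotic over smooth muscle, fibrotic over Chrm2 cells and the comparison of fibrotic subclusters were not repeated under alternatives.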
